A study of Rattus norvegicus with 12 samples.

Results

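The miR-34 and miR-449 family was measured in rat plasma with 6 of the 420 probes for endogenous miRNAs on the nCounter rat panel. The probes were miR-34a, miR-34b, miR-34c, miR-449a, miR-449c-5p and miR-449c-3p, found by name, with any arm ending, among 429 probes in all. Of these, miR-449c-3p (rno-miR-449c-3p in the table) was chosen by its raw counts, which barely moved between rats, and the others by name as its relatives in the family, so its level and steadiness are given as a description with no test. The remaining probes were 5 for exogenous miRNAs, which have no rat target, and 4 for housekeeping mRNAs. The samples were platelet-free plasma of 12 female Wistar rats, 1 sample per rat. In the control group 6 rats were not pregnant and were 110 to 269 days old, and in the pregnant group 6 rats were at gestational age E14.5 and 103 to 373 days old. RNA from 1.5 ml of plasma of every rat, in both groups, carried a spike-in of the rice miRNA osa-miR-414. Blood was taken after death by cardiac puncture, and the labels give no genotype or drug. The question was which circulating miRNAs differ between pregnant and non-pregnant rats, and how far the counts of a probe stand above those of probes without a target.

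miRNAs are short RNAs that repress messenger RNAs by pairing with them through the seed, the bases 2 to 8 of the mature strand. The miR-34 genes are transcribed in response to the tumour suppressor p53, and their products restrain the cell cycle. The miR-449 genes encode relatives with the same seed, which are known from ciliated epithelia and testis, where miR-34b, miR-34c and miR-449 act together in the formation of motile cilia. A precursor hairpin is cut into a 5p and a 3p strand, of which the 5p strand carries the family seed.

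The mature strands are shown first because the RefSeq entry named miR-449c-3p differs from its relatives in sequence, as the probe of that name does in count. Lower case is used throughout, with the seed in capitals, 5′ to 3′, as in RefSeq on build GRCr8.
miR-34a-5p: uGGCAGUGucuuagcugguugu
miR-34b-5p: aGGCAGUGuaauuagcugauugu
miR-34c-5p: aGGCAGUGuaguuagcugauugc
miR-449a-5p: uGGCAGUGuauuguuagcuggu
miR-449c-5p: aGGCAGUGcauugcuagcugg
miR-449c-3p: uAGAACUUcgucccaac
All 6 probes had an entry, 2 of them under exactly the probe's name. The 4 probes named without an arm were read as the 5p strand, the one that older names leave unmarked. The target sequence of each probe was not used here, so whether the probe named miR-449c-3p is directed at the 17 bases shown is not known, and its count may not be that of this sequence. The 5 strands of the relatives share the seed GGCAGUG, and among 693 mature names in the table these 5 alone carry it. The seed of miR-449c-3p is AGAACUU, which no other mature name in the table shares. The miR-449c-3p entry is 17 bases long, against 21 to 23 bases for the relatives and a median of 22 bases over the table, where 17 bases is the shortest length and 7 names have it.

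The hairpin of miR-449c was examined because the place of its 3p strand sets it apart from the other family hairpins. The hairpin lies at chr2:46402375-46402473 on the plus strand of GRCr8, with the annotated 3p strand in capitals at chr2:46402419-46402435.
Mir449c, 3p strand in capitals: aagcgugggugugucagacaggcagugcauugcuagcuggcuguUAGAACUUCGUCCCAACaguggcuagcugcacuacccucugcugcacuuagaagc
Only 4 bases separate the end of miR-449c-5p from the start of miR-449c-3p, and 38 bases follow it. In the fold of lowest energy predicted by RNAfold, the bases of miR-449c-5p that pair do so with positions 64 to 80 of the hairpin, while miR-449c-3p covers positions 45 to 61. In that fold 0 of the 17 bases of miR-449c-3p pair with miR-449c-5p, and 8 of them pair with each other. The annotated 3p strand of miR-449c therefore lies between miR-449c-5p and the stretch that pairs with it in the predicted hairpin. The stretch opposite miR-449c-5p, from position 64 to 80, is not covered by a mature name in the table.
Mir449c, opposite the 5p strand: uggcuagcugcacuacc
In the other 4 hairpins the 3p strand is 22 bases long and begins 10 to 22 bases after the 5p strand. There, 16 bases of it pair with the 5p strand in miR-34b, 17 in miR-34c and 18 each in miR-34a and miR-449a. The hairpin of miR-449a is shown for comparison, again with its 3p strand in capitals.
Mir449a, 3p strand in capitals: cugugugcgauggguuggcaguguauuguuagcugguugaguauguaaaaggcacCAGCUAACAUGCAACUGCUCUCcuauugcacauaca
The miR-449a hairpin begins 1436 bases downstream of that of miR-449c, at chr2:46403910-46404000, and both lie within the lncRNA gene LOC134485839. Mir34a, at chr5:165815952-165816053, lies within the lncRNA gene LOC103692514. Mir34c, at chr8:60306091-60306167 on the minus strand, lies within the span of the protein-coding gene Hoatz, and 441 bases separate it from Mir34b at chr8:60306609-60306692. Exon and intron were not in the table used. The longest run of bases that miR-449c-3p shares with any of the other 418 hairpins is 8. The panel held 1 further probe matched to a 17-base mature name, miR-1188-3p, which gave 1 to 6 counts per rat, among the 179 endogenous probes that matched a name. The other 241 were not matched and have no length here.

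Summed endogenous counts ran from 6969 to 10176 per control rat and from 5163 to 30301 per pregnant rat, and the median endogenous probe gave 6 to 12 counts. There were 7 probes for plasma and blood cell markers. Red cells were marked by miR-451 and miR-144, and white cells by miR-223, miR-142-3p and miR-150. Platelets and endothelium were marked by miR-126, and liver by miR-122. All 7 were above a count of 1 in every rat. The median endogenous probe was above 1 in every rat too, so this does not set the markers apart. In all 12 rats miR-451, miR-150 and miR-122 were above the mean + 2 SD of the 4 exogenous probes with no added RNA. That level was passed in all 12 rats by 20 of the 420 endogenous probes (4.76%). The summed count of the 7 markers was between 1078 and 3033 in control rats and between 201 and 9573 in pregnant rats. How many cells released a miRNA and how much each released cannot be told apart in plasma.

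miR-449c-3p was counted between 120 and 179 times in every one of the 12 rats. It gave 161, 146, 146, 148, 120 and 146 counts in control replicates 1 to 6, and 179, 147, 147, 121, 161 and 162 in pregnant replicates 1 to 6. The groups overlapped almost completely, with the lowest count of each group within 1 count of the other, and the highest was in pregnant replicate 1. The mean was 144.5 ± 13.4 counts in control rats and 152.8 ± 19.6 in pregnant rats (SD, n = 6 each). Over all rats it was 148.7 ± 16.6 (SD, n = 12), the 14th highest mean of the 420 endogenous probes.

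Its relatives were counted at most 24 times in any rat. miR-449a, the neighbour of miR-449c on the chromosome, gave 8, 14, 17, 13, 10 and 18 counts in control replicates 1 to 6, and 13, 13, 12, 8, 16 and 24 in the pregnant replicates. miR-449c-5p, from the same hairpin as miR-449c-3p, gave 10, 10, 12, 7, 10 and 14 counts in the control replicates and 8, 8, 8, 12, 15 and 24 in the pregnant replicates. For both probes the highest count was in pregnant replicate 6, and the other pregnant rats lay within or within 1 count of the control range. miR-34c gave 9, 6, 9, 6, 6 and 13 counts in the control replicates and 5, 8, 8, 11, 23 and 12 in the pregnant replicates. miR-34b, made from the same locus, gave 9, 9, 7, 11, 13 and 8 counts in the control and 12, 16, 4, 4, 9 and 9 in the pregnant replicates. Pregnant replicate 5 was the high rat for miR-34c and pregnant replicate 2 for miR-34b. miR-34a, from its own locus, was lowest, with 2, 1, 8, 5, 3 and 4 counts in the control and 3, 2, 5, 4, 5 and 5 in the pregnant replicates. The groups overlapped for each of the 6 probes, as they did for all 420 endogenous probes (0% without overlap).

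**Figure D1:**
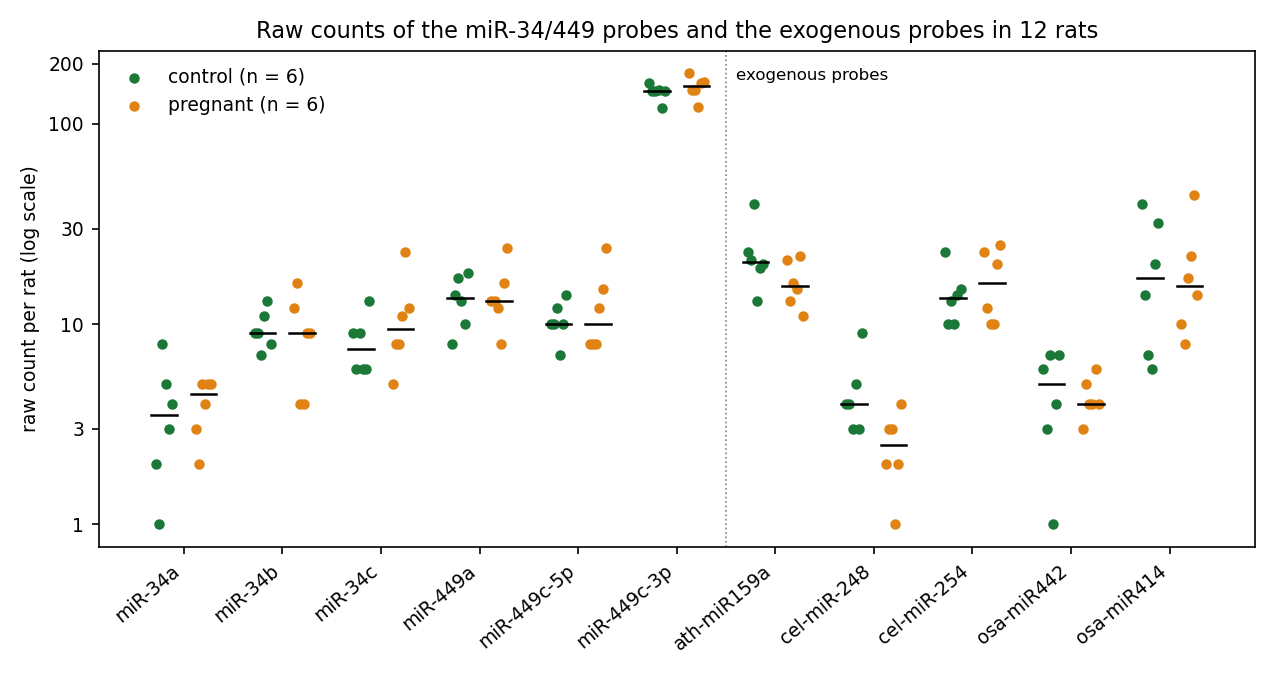
Raw count per rat (log scale) for the 6 family probes and, right of the dotted line, the 5 exogenous probes, in 6 control and 6 pregnant rats; bars mark group medians. miR-449c-3p sits between 120 and 179 in all rats, while its relatives lie between 1 and 24, in the range of the exogenous probes.

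In order of mean count, miR-449c-3p was followed by miR-449a with 13.8 ± 4.51, miR-449c-5p with 11.5 ± 4.66, miR-34c with 9.67 ± 4.91, miR-34b with 9.25 ± 3.47 and miR-34a with 3.92 ± 1.88 counts (SD, n = 12 each). Differences between probes can also come from how well each probe captures its target, so these are orders of counts and not of molecules. The miR-449c-3p probe was counted more often than each relative in 12 of 12 rats, miR-449c-5p from the same hairpin included, and no fold is given because the relatives lay in the range of the exogenous probes. Among the relatives the steps within a rat, on the log2 scale of raw counts (SD, n = 12), were of the size of their spread. From miR-449a to miR-449c-5p the step was 0.28 ± 0.45, with miR-449a higher in 8 rats, equal in 2 and lower in 2. From miR-449c-5p to miR-34c it was 0.30 ± 0.44, with miR-449c-5p higher in 9 rats, equal in 2 and lower in 1. miR-34c and miR-34b differed by 0.04 ± 0.99, with miR-34c higher in 6 rats and lower in 5. The step from miR-34b to miR-34a was 1.31 ± 1.18, with miR-34b higher in 9 rats, equal in 1 and lower in 2. These steps were not tested, and the mean step was smaller than its SD for each but the last.

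The 4 exogenous probes with no added RNA served as a level of background, and they differed widely among themselves. The paper took its background from negative control probes, which are not among the 429 probes here, so the 2 levels are not the same. Without a spike-in, ath-miR159a gave 11 to 40 counts, cel-miR-254 gave 10 to 25, cel-miR-248 gave 1 to 9 and osa-miR442 gave 1 to 7. osa-miR-414, for which RNA was added, gave 6 to 44 counts, a range that enclosed that of ath-miR159a. The mean of the 4 probes without a spike-in was 7.25 to 15.8 counts per rat. miR-449c-3p was 9.27 to 20.4 times that mean, with a median of 14.7, and at least 3.65 times the highest of the 5 exogenous probes in each rat. It was above the mean + 2 SD of the 4 probes in 12 of 12 rats, which held for 20 of the 420 endogenous probes (4.76%). Each relative was above that level in 0 of 12 rats, as were 290 of the 420 probes (69%).

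The counts of the relatives were tested against the 4 exogenous probes without a spike-in. The log2 count minus the mean log2 count of those probes in the same rat was compared with 0 by a two-sided exact sign-flip permutation test over 12 rats, adjusted over all 420 endogenous probes. By this test 177 probes (42.1%) were higher and 166 (39.5%) lower at an adjusted p of 0.05. Since 14 endogenous probes were at 1 in all rats, and probes differ in their own background, the test compares a probe with the level of these 4 probes and not with its own background. The smallest raw p that 12 rats can give is 0.000488. miR-449a was higher by 0.79 ± 0.49 (SD, n = 12; adjusted p = 0.00178, exact permutation test), in 11 of 12 rats, and miR-449c-5p by 0.50 ± 0.49 (adjusted p = 0.00178, exact permutation test), also in 11 of 12. miR-34a was lower by this measure, at -1.15 ± 0.88 (adjusted p = 0.00107, exact permutation test), in 12 of 12 rats. miR-34c, at 0.21 ± 0.60, and miR-34b, at 0.17 ± 0.67, did not pass (adjusted p = 0.303 and 0.424, exact permutation test), and each was above 0 in 7 of 12 rats. For miR-449c-3p the same difference was 4.27 ± 0.36, from 3.64 to 4.87, given without a test.

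The calls of miR-449a and miR-449c-5p depended on the reference level, on the number of rats and on how the exogenous probes were averaged. Against the log2 of their arithmetic mean, miR-449a was at 0.34 (adjusted p = 0.0516) and miR-449c-5p at 0.05 (adjusted p = 0.753) by the exact permutation test. With the spike-in probe included, miR-449c-5p was at 0.29 (adjusted p = 0.0523, exact permutation test) and miR-449a at 0.57 (adjusted p = 0.0118). Against the 4 mRNA probes miR-449a was at 0.86 and miR-449c-5p at 0.57 (adjusted p = 0.0014 and 0.00871, exact permutation test). In the 6 control rats alone the adjusted p of both was 0.0852 by the exact permutation test. In the 6 pregnant rats alone both were higher in 6 of 6, at 0.96 and 0.71 (adjusted p = 0.0531, exact permutation test). With 6 rats the smallest raw p is 0.03125, so these tests had little room to call a probe. Against the highest of the 4 probes in each rat, miR-449a and miR-449c-5p were lower, at -0.59 and -0.88 (adjusted p = 0.00264 and 0.000771, exact permutation test). So were miR-34a, miR-34b and miR-34c. Of the 420 endogenous probes, 305 were lower by that measure and 53 higher.

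**Figure D2:**
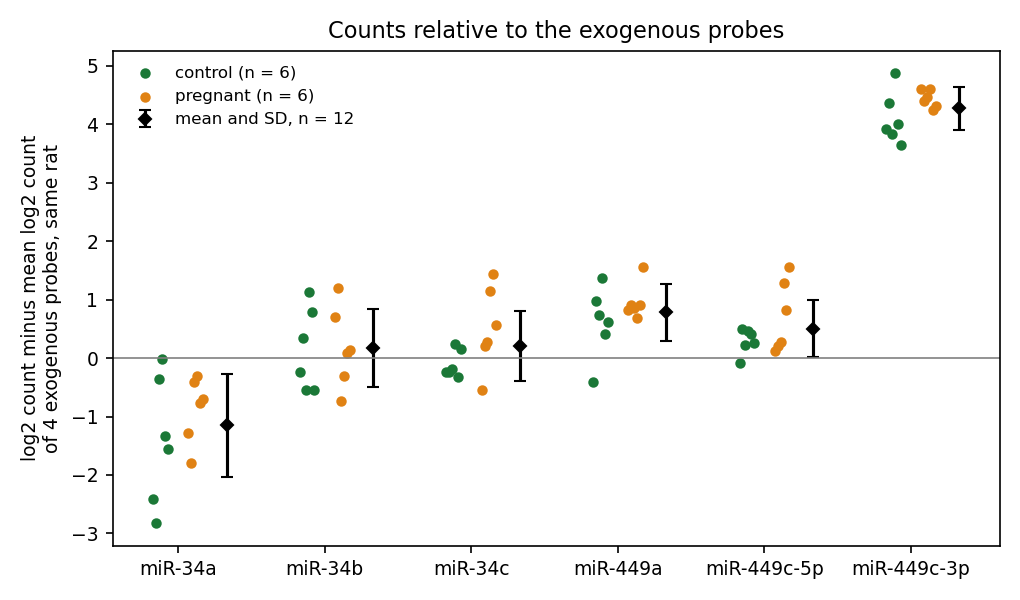
Log2 count of each family probe minus the mean log2 count in the same rat of the 4 exogenous probes with no added RNA, for 6 control and 6 pregnant rats, with the mean and SD over 12 rats as a diamond. The relatives lie around 0, from -2.82 to 1.56, and miR-449c-3p lies between 3.64 and 4.87.

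In raw counts, the spread of miR-449c-3p between rats was small for its level. Its coefficient of variation was 11.1%, where independent counts of its mean would give 8.20%, and its variance was 1.84 times its mean. Those are the values by which it was chosen. Over the same rats the variance of the relatives was 0.90 times the mean for miR-34a, 1.30 for miR-34b, 1.47 for miR-449a, 1.89 for miR-449c-5p and 2.49 for miR-34c. Their coefficients of variation, at lower means, were 32.6% to 50.7%. The 4 exogenous probes with no added RNA had coefficients of variation between 37.4% and 56.4%, in the range of the relatives, and osa-miR-414 had 65.8%, with a variance 8.44 times its mean.

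At the level of miR-449c-3p most endogenous probes spread far more in raw counts. Of the 10 endogenous probes with a mean within 1.5 times that of miR-449c-3p, it had the lowest coefficient of variation, against a median of 95.7%. The nearest in mean were miR-126, of endothelium and platelets, with 149.8 counts and from 16 to 752 per rat, and miR-130a with 145.9 counts and from 32 to 506. The p53-linked miR-215 ran from 6 to 695 counts around a mean of 136.4, and miR-27a from 35 to 655 around 186.8. The exception among the 5 nearest was miR-3594-5p, with 109.4 counts, a range of 85 to 137 and a coefficient of variation of 12.4%. Of the 186 endogenous probes with a mean of at least 10 counts, 21 had a coefficient of variation of at most 20%, a limit set after the values were seen, and miR-449c-3p had the highest mean of them. Lower coefficients than that of miR-449c-3p were found in miR-3595, with 7.26% and 41 to 52 counts, and miR-3579, with 7.60% and 27 to 34 counts. Of these 21 probes, 13 carried names from miR-35 followed by 2 digits, as did 37 of the 186. Per total endogenous count the contrast was smaller, with a coefficient of variation of 40.6% for miR-449c-3p. Among the 5 nearest in mean it was then 41.4% for miR-3594-5p, 44.6% for miR-27a, 46.8% for miR-130a, 75.1% for miR-126 and 117% for miR-215.

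**Figure D3:**
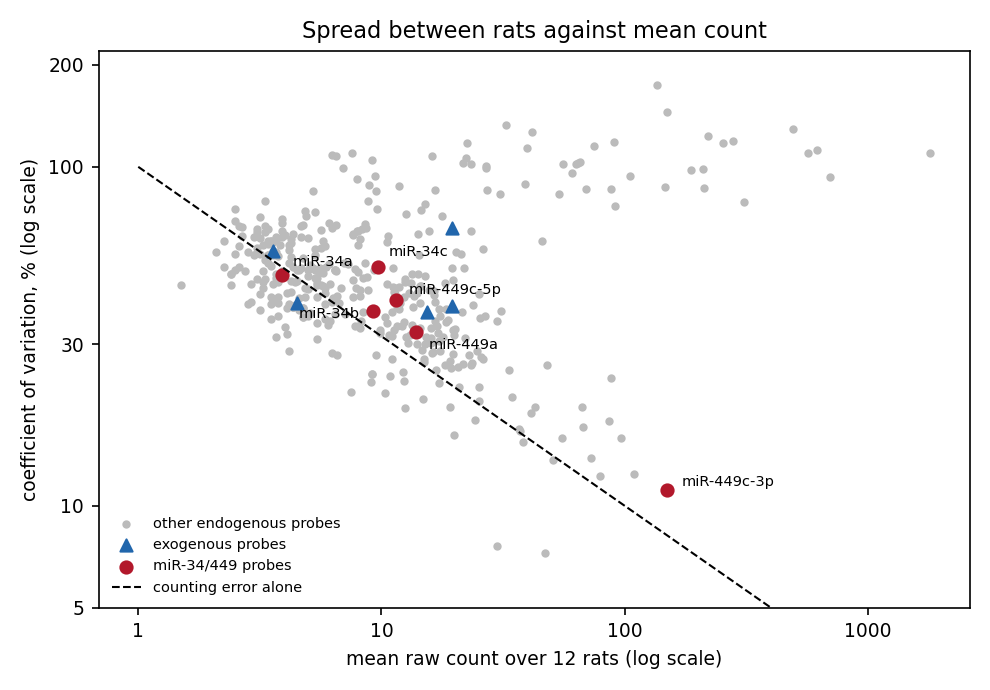
Coefficient of variation over 12 rats against mean raw count, both on log scales, for endogenous probes above a count of 1 in any rat, with the family probes in red and the exogenous probes as triangles; the dashed line is the spread of counting error alone. miR-449c-3p, at 148.7 counts and 11.1%, lies near the dashed line, far below most probes of like mean.

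The count of miR-449c-3p did not follow the amount of miRNA counted in a lane. It was chosen for steady raw counts in these same rats, so this is a description. Summed endogenous counts differed 5.87 times between the lowest and the highest rat, and miR-449c-3p counts 1.49 times. Its share of the endogenous counts therefore fell from 2.85% (95% Wilson interval 2.43 to 3.34) in pregnant replicate 2, the rat with the lowest total, to 0.535% (0.459 to 0.623) in pregnant replicate 6, the rat with the highest. These intervals cover counting error only. In pregnant replicate 2 it was the most counted endogenous probe, and in pregnant replicate 6 it ranked 25th. In control rats, whose totals were close, the share was 1.43% to 1.86%. In pregnant replicates 5 and 6, with 24010 and 30301 counts, the 5 relatives summed to 68 and 74 counts, above the 37 to 57 counts of the other 10 rats. In the same lanes miR-449c-3p gave 161 and 162 counts, inside the 120 to 179 counts of the other 10. The median endogenous probe gave 12 counts in each of these lanes and 6 to 9 in the other 10, and the exogenous mean was 12.5 and 11 against 7.25 to 15.8. The part of lane depth in the counts of the relatives was not tested. The order of spread within the family depended on the scale. Per total endogenous count, the coefficient of variation of miR-449c-3p was 40.6%, above the 34.4% of miR-449c-5p, and on the TMM scale, which sets lanes against each other by their middle probes, it was 17.0%, against 22.0% for miR-449a and 24.5% for miR-449c-5p.

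**Figure D4:**
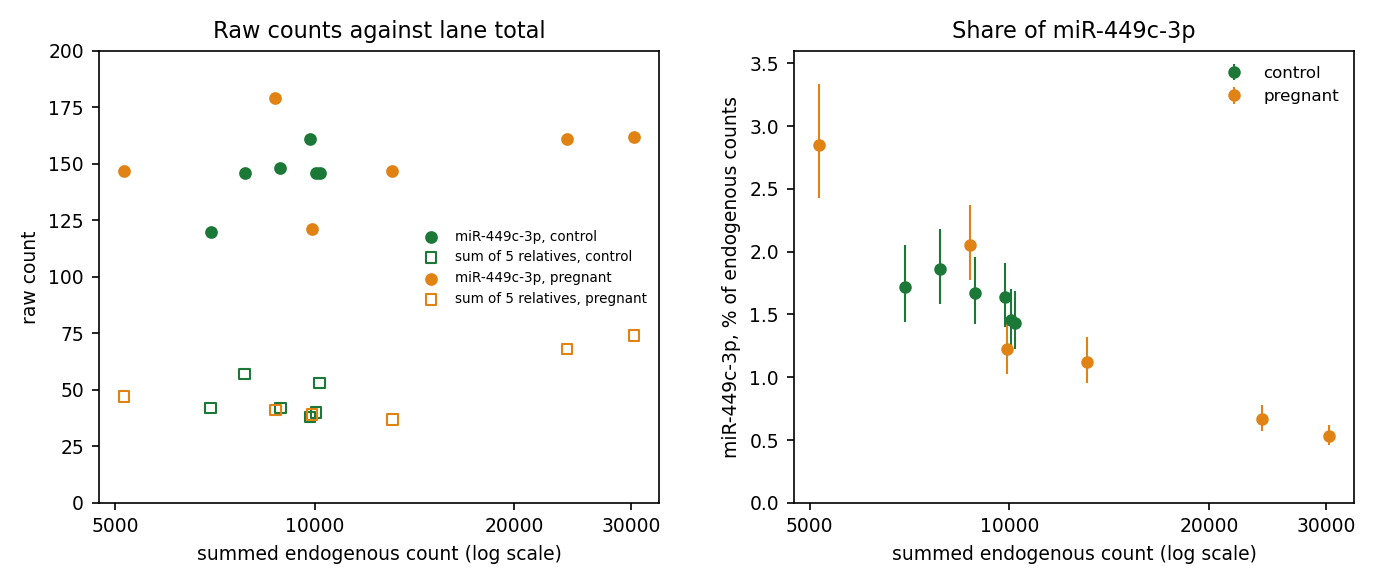
Left, raw counts of miR-449c-3p (filled circles) and of the sum of its 5 relatives (open squares) against the summed endogenous count of the rat (log scale). Right, the share of miR-449c-3p in the endogenous counts with 95% Wilson intervals; the count stays between 120 and 179 while the share falls from 2.85% to 0.535%.

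The endogenous probes most like miR-449c-3p were taken as those with the highest Spearman rho of raw counts over the 12 rats, among those with a mean of at least 10 counts. They were miR-3586-3p with a rho of 0.83, miR-3590-3p with 0.77, miR-489 with 0.77, miR-3597-5p with 0.76 and miR-3585-3p with 0.75, against a median rho of 0.31. Each rat was read in 1 lane for all probes, so lane effects are shared, and the order of 12 counts as close as those of miR-449c-3p rests on small differences. Of the relatives, miR-34b had a rho of 0.26, miR-449a 0.23, miR-34a 0.11, miR-34c 0.02 and miR-449c-5p, from the same hairpin, -0.07. Per total endogenous count the rho was 0.96 for miR-34b, 0.83 for miR-449a, 0.60 for miR-449c-5p, 0.34 for miR-34a and 0.29 for miR-34c, against a median of 0.69, where all values of a rat share the same divisor.

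Between pregnant and control rats, 0 of the 5 relatives passed the test. edgeR's quasi-likelihood test with TMM scaling called 0 of 187 probes past the filter (0%), and 0 of all 420 (0%). With an unadjusted p under 0.05 there were 11 of 187 (5.88%), 8 by DESeq2 and 6 by limma-voom, and 20 of 420 (4.76%), with 0 of the relatives among them. The filter of at least 10 counts in at least 6 rats was passed by miR-449a, miR-449c-5p and miR-449c-3p, and the other 3 members are given from the fit on all 420 probes. The log2 fold change of pregnant over control rats was 0.37 for miR-34c (standard error 0.30, 95% interval -0.27 to 1.00, edgeR adjusted p = 0.878), the largest of the family. It was 0.12 for miR-449c-5p (standard error 0.22, interval -0.35 to 0.59) and -0.15 for miR-34b (standard error 0.35, interval -0.89 to 0.60). miR-449a, at -0.01 (standard error 0.22, interval -0.48 to 0.45), and miR-34a, at -0.002 (standard error 0.35, interval -0.75 to 0.75), were closest to 0. A p above the threshold does not show that a probe was the same in both groups, and these intervals give the sizes that the data leave possible. For miR-449c-3p the fitted value was 0.04 (standard error 0.27, interval -0.54 to 0.62), as a description, since a probe chosen for steady counts has little room to differ. In the fit on all 420 probes the median log2 fold change was 0.02 over the 5 relatives and 0.06 over all probes.

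The direction of these values followed the scaling. Scaling to library size moved the median of the 187 tested probes from 0.05 to -0.33 on the log2 scale, and scaling to the 4 exogenous probes moved it to 0.31. Under library size miR-449c-5p was at -0.43, miR-34c at -0.19 and miR-449c-3p at -0.20, all of them above 0 under TMM. Under the exogenous probes miR-449a was at 0.28, miR-34a at 0.27 and miR-34b at 0.07, all below 0 under TMM. Of 111 values for the 5 relatives over all settings, including each rat left out in turn, 0 had an adjusted p under 0.05, and the smallest was 0.430. Pregnant replicates 5 and 6 were also both left out of the fit on all 420 probes, a choice made after the counts were seen. miR-34c was then at 0.13, miR-34b at 0.0564, miR-34a at 0.0234, miR-449a at -0.0641 and miR-449c-5p at -0.0648. With all rats in that fit, miR-34b was at -0.15, miR-34a at -0.002, miR-449a at 0.0223 and miR-449c-5p at 0.16. Each of these changed sign, and miR-34c, at 0.37 with all rats, did not.

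**Figure D5:**
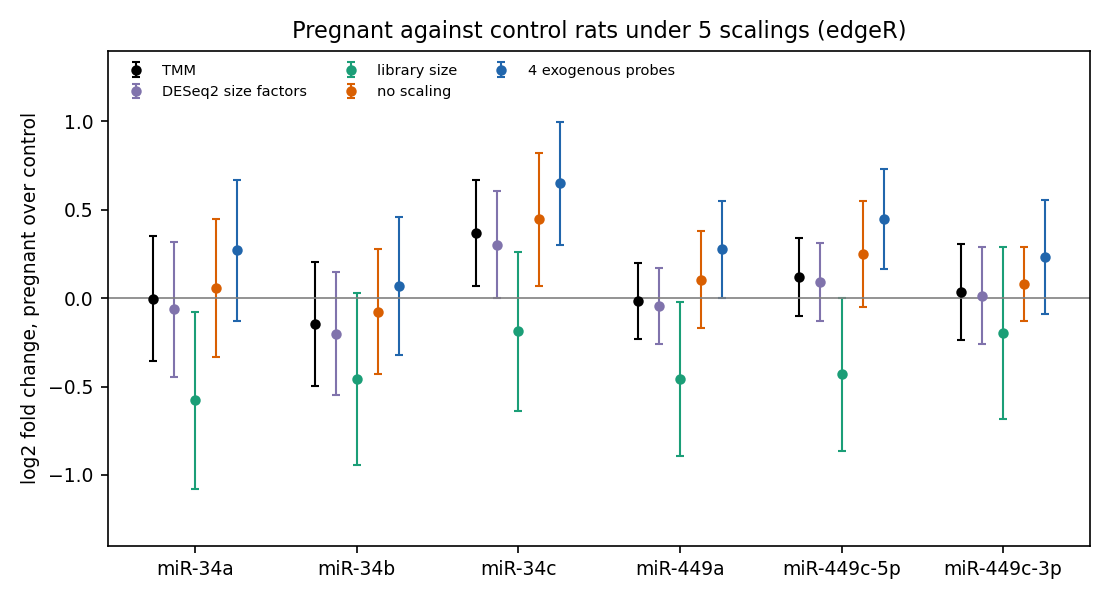
Log2 fold change of pregnant over control rats from edgeR for each family probe under 5 scalings, with bars of 1 standard error. Values under library size lie lowest and those scaled to the exogenous probes highest for each of the 6 probes, and 0 of the 5 relatives passed the adjusted threshold.

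Other miRNAs linked to p53 were taken from a list of 10, of which 8 had a probe. In the fit on all 420 probes 0 of the 8 passed an adjusted p of 0.05, and 7 had a positive log2 fold change, as did 56.7% of all probes, with a median of 0.63 against 0.06 over all probes. All 7 blood cell and liver markers had a higher mean raw count, without scaling, in the pregnant group, with 0 called. The mean summed endogenous count was higher there too, at 15200.5 against 8959 in control rats. The medians were closer, at 11503 against 9359, and pregnant replicates 5 and 6 gave 24010 and 30301. Not every pregnant rat was higher in the markers: their summed count ran from 201 to 9573 in pregnant and from 1078 to 3033 in control rats. With no scaling, 71.1% of the 187 probes past the filter had a positive log2 fold change. miR-215, with a log2 fold change of 2.47, miR-203 with 1.16 and miR-192 with 1.10 passed an unadjusted p of 0.05 (edgeR adjusted p = 0.835 for each), where 4.76% of all probes did. The counts of miR-215 ran from 7 to 64 in control and 6 to 695 in pregnant rats, those of miR-203 from 26 to 34 and 13 to 203, and those of miR-192 from 14 to 27 and 14 to 146. The groups overlapped for each of the 3, and the high counts lay in pregnant replicates 5 and 6, the rats with the largest totals. There miR-215 gave 586 to 695 counts against 6 to 89 in the other 10 rats, miR-203 gave 138 to 203 against 13 to 59 and miR-192 gave 126 to 146 against 14 to 27. Without these rats miR-215 was at 0.42, miR-203 at 0.39 and miR-192 at -0.15. miR-145 was at -1.12 (edgeR unadjusted p = 0.0390, adjusted p = 0.742) and miR-16 at -1.01 (edgeR adjusted p = 0.890). Over all 420 probes in the fit without these rats, the median was 0.0015 and 50.5% were positive. There 26 of the 420 had an edgeR unadjusted p under 0.05. The median of the list was -0.00444 and 4 of the 8 were positive. One of them was miR-107, at 0.14, which had the same count in all rats. The parts of blood cell content and depth in these values were not tested. With all rats, miR-16, a repressor of cell cycle genes, was at 0.87 with a standard error of 1.07. Its count was above 1 in 10 of 12 rats. The rats at 1 were pregnant, as control rats gave 167 to 506 counts. They remained in the fit without pregnant replicates 5 and 6, so the -1.01 there includes them. miR-145 and miR-143, of smooth muscle, were at 0.26 and 0.04 with all rats. miR-194 was at 0.40, and miR-107 had a count of 1 in all rats.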

How the data were processed

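The authors deposited raw counts per probe and rat, read on the nCounter with the Rat v1.5 miRNA codeset, without background correction or normalisation. The counting software was not given in the sources used here. The smallest count was 1, and every sample column was used. Groups came from the sample titles. Among 66 pairs of rats 0 had identical counts, and p-values measure the spread between rats.

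Members, lists, tests and alternatives were chosen with earlier results of these data known. Named were the family probes, the exogenous and mRNA probes, the 5 endogenous probes most like miR-449c-3p by Spearman rho and the 5 nearest to it in mean count. The limit of 20% on the coefficient of variation was added after the values were seen. edgeR 4.0.16 in R 4.3.3 (glmQLFit, glmQLFTest, TMM) was fitted to the endogenous probes that reached 10 counts in 6 or more rats, and to all 420, with Benjamini-Hochberg adjustment. The standard error was the size of the fold change over the square root of its F statistic, and intervals used the degrees of freedom of the fit. DESeq2 1.42.0 and limma 3.58.1 were alternatives. The sign-flip test enumerated all sign patterns with numpy 2.4.6. Hairpins were folded with RNAfold 2.7.2. On simulated counts for pregnant against control rats, edgeR recovered 64 of 85 changed probes at a 2-fold change (189 tested, 1 false call). At a 4-fold change it recovered 107 of 107 (194 tested, 2 false calls). Only changed probes past the filter are counted. Spread was simulated from its trend with mean count, so recovery of probes that spread more than the trend was not measured. For the endogenous against the exogenous probes, independent normal values of equal spread were drawn, not counts. The sign-flip test recovered 192 of 200 probes shifted by 1 on the log2 scale among 420, with 5 false calls. In the data all probes of a rat share the same exogenous mean, so these numbers do not carry over to the counts.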

Additional observations from a re-analysis of the deposited data

Results flagged for a closer look

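Among 26 groups of 6 rats examined for the 6 members, the 5 exogenous probes, the sum of the relatives and the share of miR-449c-3p, 3 held a rat whose gap to the nearest other rat was over 0.625 of the range of the group. About 1 in 20 such groups is marked by chance. miR-449c-3p gave 120 counts in control replicate 5, where the other control rats gave 146 to 161. ath-miR159a gave 40 counts in control replicate 3, and cel-miR-248 gave 9 counts in control replicate 6.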

How the results depend on the processing

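The edgeR count for pregnant against control rats was 0 under every alternative and with each rat left out. The replicate numbers do not pair the rats: correlations of same-numbered rats ran from -0.34 to 0.27, with 2 of 6 above 0.1 and 1 of 6 best with its own number, and with the replicate block 0 probes were called and 3 had an unadjusted p under 0.05, against 11 without it. Directions changed as follows, the cause being untested. miR-34a became 0.0595 with no scaling, 0.27 scaled to the exogenous probes and 0.0555 with the replicate block. miR-34b became 0.0684 scaled to the exogenous probes, and under library size miR-34c became -0.19, miR-449c-3p -0.20 and miR-449c-5p -0.43. miR-449a became 0.0223 with all probes tested, 0.10 with no scaling, 0.28 scaled to the exogenous probes, 0.0172 in limma-voom and 0.00397 in the permutation test. With pregnant replicates 5 and 6 both left out, an alternative added after seeing the data, miR-34a became 0.0234, miR-34b 0.0564 and miR-449c-5p -0.0648. miR-449a, at 0.0223 in the fit on all probes, became -0.0641 in that fit without these rats. With a rat left out, log2 fold changes ran from -0.17 to 0.30 for miR-34a, -0.46 to -0.003 for miR-34b, 0.15 to 0.50 for miR-34c, -0.16 to 0.0587 for miR-449a, -0.0782 to 0.11 for miR-449c-3p and -0.10 to 0.19 for miR-449c-5p. DESeq2, limma-voom and the permutation test gave no values for the 3 members outside the filter. Against the exogenous probes, 177 higher probes became 146 with 5 exogenous probes, 127 with the arithmetic mean and 53 with the highest. Against the 4 mRNA probes there were 173. The 6 control rats alone gave 127 and the 6 pregnant rats alone 0. In either group 6 rats allow no raw p under 0.0312, and the smallest adjusted p was 0.0497 and 0.0531 (exact permutation test). With a rat left out the number ran from 166 to 174. miR-34b became -0.0442 with 5 exogenous probes, -1.21 with the highest and -0.28 with the arithmetic mean. miR-34c became -0.00648, -1.17 and -0.24, and -0.10 in control rats alone. miR-449a became -0.59 and miR-449c-5p -0.88 with the highest. The coefficient of variation of miR-449c-3p, 11.1%, was 40.6% per total endogenous count and 17.0% on the TMM scale, and 9.63% to 11.7% with a rat left out. Counts under about 10 limit what can be seen for miR-34a, miR-34b and miR-34c.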
